A study of Homo sapiens with 4 samples.

Results

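The integrated stress and amino acid response was followed through 10 genes, ATF4, ATF5, DDIT3, DDIT4, TRIB3, ASNS, PSAT1, PHGDH, CHAC1 and SESN2, in H9 cells in which the long non-coding RNA gene SNHG26 was repressed. The genes were chosen by name, and all 10 were found among the 16174 genes of the deposited table. Of these, 9 reached an average of 1 TPM and entered the tests. The tenth, TRIB3, had a mean of 0.551 TPM and is described by its values. TPM is a length-corrected share of the reads of a library, here corrected by the distance along the genome that a gene or transcript spans.

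H9 is an established line of human embryonic stem cells in the primed state, grown here without feeder cells in mTeSR medium. Every group carried a piggyBac vector with doxycycline-inducible dCas9-BFP-KRAB, a Cas9 that binds DNA without cutting and carries a silencing domain. The vector was brought in with hyPBase transposase and kept by puromycin selection. The SNHG26 arm also received 4 pooled guides against SNHG26, and the control arm received control guides. Cells of both arms were taken after 2 or 3 days of doxycycline, and cDNA amplified from their poly(A) RNA was sequenced on a nanopore device, with 1 library per arm and day. There were 4 libraries, 2 per arm. The labels describe selected populations and do not say whether the libraries came from separate cultures, so p-values measure the spread between these 4 libraries, 2 of which differ in day within each arm.

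In the integrated stress response, kinases that sense amino acid shortage, unfolded protein, viral RNA or heme loss phosphorylate the translation factor eIF2. General translation then slows while the mRNA of the transcription factor ATF4 is translated better, and ATF4 raises genes for amino acid synthesis, amino acid uptake and tRNA charging. ATF4 works with C/EBP family partners at the C/EBP-ATF response element, and several of its targets feed back on mTORC1, the kinase that drives growth when amino acids are plentiful. Because ATF4 is controlled largely in translation, its mRNA level is an incomplete readout of its activity.

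SNHG26 was at 0 and 0.933 TPM with SNHG26 guides on day 2 and day 3, against 2.98 and 4.03 TPM with control guides. Both SNHG26 libraries lay below both control libraries, a pattern held by 13.2% of all 8274 tested genes. The change of -1.69 on the log2(TPM + 1) scale (SE 0.58, n = 2 against 2) did not pass limma's test (adjusted p = 0.935). Of 10 pluripotency markers, 8 were above 0 in all 4 libraries, ZIC2 was at 0 and TDGF1 is not analysed here. Their summed level was 1447 to 1631 TPM. The sums were at most 1.29 TPM for 2 of 5 amnion markers, 1.98 TPM for 2 of 6 mesendoderm markers and 11.9 TPM for 3 of 5 feeder cell markers, the others not being analysed here. Of 4 neuroectoderm markers only NES was measured, at 17.1 to 24.5 TPM. Libraries held at most 947338 to 1220265 reads, if each read is taken over the full span of its gene. In bulk RNA, fewer cells of a type and less RNA per cell cannot be told apart.

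The C/EBP-ATF response element was searched as TGATGNAA on both strands in RefSeq promoter windows (build GRCh38.p14) that run from 250 bases before a gene's start to 50 bases after it. The letters occurred in 3.62% of 35116 windows and in at least 1 window of 4.46% of 27305 genes. All 10 genes had a window, and 2 of them, ASNS and CHAC1, held a match. Among the other ATF4 targets the match was found in 7 of 10 tRNA synthetase genes with a window and in 5 of 8 amino acid transporter genes, but in only 1 of 5 serine, glycine and one-carbon genes, 1 of 6 other amino acid enzyme genes and 1 of 9 other target and mTORC1 regulator genes. The ASNS promoter is shown because this gene is the textbook target of the element. It is chr7:97872409-97872658 on the minus strand, 250 bases read towards the gene, with the match in capitals 68 bases upstream of the RefSeq start at position 97872408. The deposited row of ASNS begins farther upstream and covers the match.
ASNS: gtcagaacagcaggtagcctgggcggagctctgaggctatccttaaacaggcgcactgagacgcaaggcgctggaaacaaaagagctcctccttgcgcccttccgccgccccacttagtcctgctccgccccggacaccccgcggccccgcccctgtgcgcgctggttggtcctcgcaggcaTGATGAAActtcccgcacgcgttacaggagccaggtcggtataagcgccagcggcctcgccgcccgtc

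The other windows are cut to 30 bases and show how the fixed letters and the free base sit in the second gene of the set and in 3 genes of the wider programme. CHAC1 is chr15:40953251-40953280 on the minus strand, with the match 209 bases upstream of the RefSeq start at position 40953471, and it too lies inside the deposited row. MARS1, the methionyl-tRNA synthetase gene, is chr12:57488053-57488082 on the minus strand. TARS1, the threonyl-tRNA synthetase gene, is chr5:33440956-33440985 on the minus strand. CEBPG, which encodes a C/EBP partner of ATF4, is chr19:33374060-33374089 on the plus strand.
CHAC1: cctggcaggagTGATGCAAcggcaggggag
MARS1: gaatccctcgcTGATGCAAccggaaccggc
TARS1: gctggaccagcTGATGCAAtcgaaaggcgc
CEBPG: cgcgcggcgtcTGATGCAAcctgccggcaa
A match is only a description of the sequence and shows neither binding nor use in these cells. No window of the 10 genes held the ER stress response element, which occurred in 0.0769% of windows, while 4 of 10 ER chaperone genes held it (CALR, CRELD2, HSP90B1 and HSPA5).

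The mRNA of the central transcription factor differed little in TPM between the libraries. ATF4 (chr22:39519695-39522686, plus strand) was at 99.5 TPM on day 2 and 101 TPM on day 3 with SNHG26 guides, and at 101 TPM and 87.5 TPM with control guides. The control library of day 3 was the lowest and the other 3 lay within about 1 TPM of each other. The guide change, SNHG26 guides minus control guides on the log2(TPM + 1) scale, was -0.01 on day 2 and 0.20 on day 3. Its mean of 0.09 (SE 0.20, n = 2 against 2) did not pass limma's test over 8274 genes (adjusted p = 0.998).

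ATF5 and DDIT3, which encode stress-induced transcription factors of the bZIP family that are themselves targets of ATF4, were lower in both day 3 libraries than in both day 2 libraries. ATF5 (chr19:49928702-49933935, plus strand) was at 14.0 and 8.28 TPM with SNHG26 guides on day 2 and day 3, and at 11.9 and 2.84 TPM with control guides. DDIT3, which encodes CHOP (chr12:57516588-57521737, minus strand), was at 9.29 and 6.67 TPM with SNHG26 guides and at 14.4 and 3.42 TPM with control guides. In both genes the control library of day 3 was the lowest of the 4.

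These levels rest on few reads. Where a value is a whole multiple of what 1 read is worth on a given span, the read number can be recovered, and on a span of 4731 bases ATF5 had 6 reads in the SNHG26 library of day 3, 7 in the control library of day 2 and 2 in that of day 3. The SNHG26 library of day 2 came to about 9. DDIT3 had about 5, 4, 7 and 2 reads in the same order of SNHG26 day 2, SNHG26 day 3, control day 2 and control day 3, on a span of 3922 bases. The ratio of control day 3 to control day 2 was 0.239 for ATF5 (95% exact interval 0.0242 to 1.25) and 0.238 for DDIT3, so neither difference was detectable at this depth. These intervals cover counting error only, since amplified cDNA without molecular identifiers does not count molecules.

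The day change, day 3 minus day 2 on the log2(TPM + 1) scale, was -1.22 for ATF5 (SE 0.52, unadjusted p = 0.0823, adjusted p = 0.760, limma). For DDIT3 it was -1.11 (SE 0.43, unadjusted p = 0.0630, adjusted p = 0.760, limma). For ATF5 the guide change was 0.22 on day 2 and 1.27 on day 3 (mean 0.74, SE 0.71, limma adjusted p = 0.941). For DDIT3 it was -0.58 on day 2 and 0.79 on day 3 (mean 0.11, SE 0.71, limma adjusted p = 0.998). ATF5 overlaps NUP62 by 1063 bases and IL4I1 by 838 bases on the other strand, and DDIT3 overlaps MARS1 by 982 bases and MBD6 by 1028 bases. Whether counting used the strand is not given in the sources used here, so reads of these partners may be shared. MARS1 was the most abundant of them, at 40.1 to 56.1 TPM.

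TRIB3 (chr20:362835-397559, plus strand), which encodes a pseudokinase that restrains ATF4 and the kinase AKT, was close to the detection limit. It was at 0.434 TPM and 0 TPM with SNHG26 guides on day 2 and day 3, and at 0.956 TPM and 0.812 TPM with control guides. On a span of 16800 bases these are 1, 0, 2 and about 2 reads, and on the full listed span at most 2.07, 0, 4.13 and 4.20. The 0 allows up to 1.21 TPM (3 reads on the median transcript span), which is above the value of every other library. No fold is given for a gene at this depth, although its arms do not overlap.

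**Figure D1:**
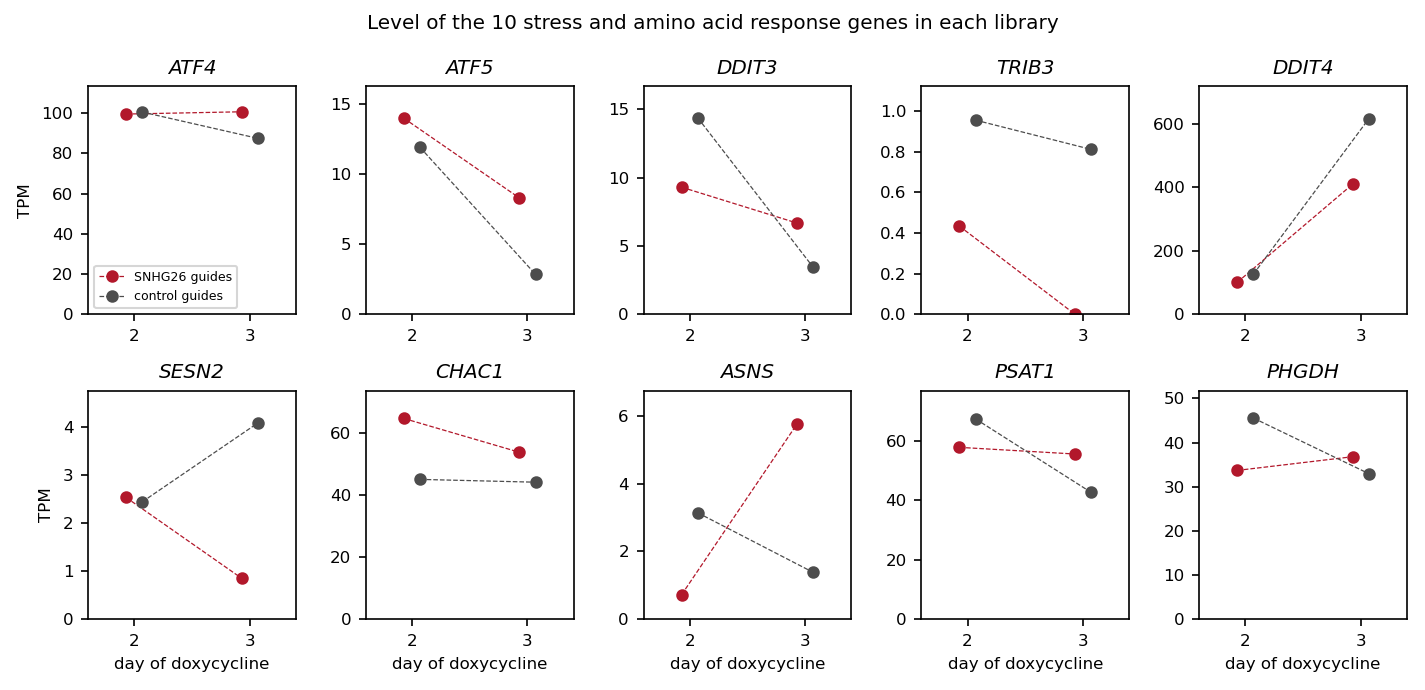
Level of the 10 genes in TPM in each of the 4 libraries, with 1 point per library, coloured by guide arm and shown separately for day 2 and day 3. DDIT4 separates by day (101 and 126 TPM on day 2, 410 and 616 TPM on day 3), CHAC1 separates narrowly by arm, and ATF4 stays between 87.5 and 101 TPM.

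DDIT4, which encodes REDD1, an inhibitor of mTORC1 that is induced by several stresses besides amino acid shortage, was the gene of the set that differed most between the days. DDIT4 (chr10:72273919-72276036, plus strand) was at 101 TPM on day 2 and 410 TPM on day 3 with SNHG26 guides, and at 126 TPM and 616 TPM with control guides. The mean was 113 ± 18.1 TPM on day 2 and 513 ± 146 TPM on day 3 (SD, n = 2 each), and the days did not overlap. Within 1 arm, day 3 over day 2 was 4.08-fold with SNHG26 guides and 4.88-fold with control guides. Even with the fewest reads the transcript spans allow, the 95% exact intervals were 1.85 to 9.11 and 2.41 to 10.5.

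Over both arms the day change of DDIT4 was 2.15 on the log2(TPM + 1) scale (SE 0.27). It ranked 68th of 8274 genes by its unadjusted p of 0.00154 and did not pass limma's adjusted test (adjusted p = 0.187, between 0.186 and 0.467 over the alternatives). A level more than 2-fold higher on day 3 in both arms was seen in 2.94% of all tested genes and in 34 of the 2032 genes averaging at least 20 TPM, or 1.67%. Ordered by the smaller of the changes in the 2 arms, DDIT4 stood 5th among those 34. With SNHG26 guides DDIT4 was lower on both days, by guide changes of -0.32 and -0.59, with a mean of -0.46 (SE 1.07, limma adjusted p = 0.998). On day 3 the ratio of the arms was 0.665, with an exact interval of 0.531 to 0.836 for the most reads the span allows and 0.431 to 1.02 for the fewest.

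SESN2 encodes Sestrin 2, a leucine sensor that also holds back mTORC1, and it differed from DDIT4 in its pattern. SESN2 (chr1:28259518-28282491, plus strand) was at 2.54 and 0.853 TPM with SNHG26 guides on day 2 and day 3, and at 2.45 and 4.09 TPM with control guides. These values are exactly 8, 3, 7 and 14 reads on the listed span of 22974 bases. The arms were alike on day 2 and apart on day 3, where the ratio was 0.208 (95% exact interval 0.0384 to 0.747, counting error between these 2 libraries). Its guide change was 0.04 on day 2 and -1.46 on day 3 (mean -0.71, SE 0.55, limma adjusted p = 0.935). The difference between the days, -1.50 (SE 1.07), did not pass limma's test (adjusted p = 0.961).

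CHAC1 encodes a glutathione-degrading enzyme that is induced by ATF4 and CHOP. CHAC1 (chr15:40952962-40956512, plus strand) was at 64.7 and 53.8 TPM with SNHG26 guides on day 2 and day 3, and at 45.1 and 44.2 TPM with control guides. Both SNHG26 libraries lay above both control libraries, with means of 59.3 ± 7.70 and 44.6 ± 0.638 TPM (SD, n = 2 each). It was the only tested gene of the 9 with every SNHG26 library higher, a pattern held by 16.1% of all 8274 genes, and none of the 9 had every SNHG26 library lower, a pattern held by 13.2%. The guide change of CHAC1 was 0.51 on day 2 and 0.28 on day 3, and its mean of 0.40 (SE 0.23, unadjusted p = 0.160) did not pass limma's adjusted test (adjusted p = 0.935). On a span of 3042 bases the libraries held about 27 and 25 reads with SNHG26 guides and 17 and 20 reads with control guides. The ratio between the arms was 1.44 on day 2 (95% exact interval 0.758 to 2.82) and 1.22 on day 3 (0.648 to 2.31), so a difference was not detectable on either day alone.

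The serine pathway genes were well expressed. PHGDH encodes the enzyme of the first step from glycolysis to serine and PSAT1 the aminotransferase of the next. PSAT1 (chr9:78297125-78330093, plus strand) was at 57.7 and 55.5 TPM with SNHG26 guides on day 2 and day 3, and at 67.3 and 42.6 TPM with control guides. The SNHG26 libraries were close together, and the control libraries were the highest and the lowest of the 4. The 2 transcripts of PSAT1 have nearly equal spans, which bounds its reads closely, at up to 261, 280, 276 and 209 in the order SNHG26 day 2, SNHG26 day 3, control day 2 and control day 3. Between the control libraries, day 3 over day 2 was 0.633 (95% exact interval 0.526 to 0.761), and between the SNHG26 libraries it was 0.961 (0.809 to 1.14).

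The guide change of PSAT1 was -0.22 on day 2 and 0.37 on day 3. The ratio of the arms was 0.858 on day 2 (95% exact interval 0.722 to 1.02) and 1.30 on day 3 (1.09 to 1.57). Its difference between the days, 0.59 (SE 0.55), did not pass limma's test (adjusted p = 0.965). The pseudogene PSAT1P1 was listed at 18.2 TPM in the control library of day 3, at 6.59 TPM in the SNHG26 library of day 2 and at 0 in the others, so its highest value lay in the library with the lowest PSAT1. A second pseudogene, PSAT1P3, was at 5.88 and 6.05 TPM in the SNHG26 and control libraries of day 3 and at 0 on day 2, and PSAT1 was not low in the first of these. Sharing of reads among these genes was not tested.

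PHGDH (chr1:119648411-119744218, plus strand) was at 33.7 and 36.8 TPM with SNHG26 guides on day 2 and day 3, and at 45.6 and 33.0 TPM with control guides. Only the control library of day 2 stood apart, above the other 3. Its guide change was -0.42 on day 2 and 0.15 on day 3 (mean -0.13, SE 0.28, limma adjusted p = 0.998). The gene has 34 GENCODE transcripts with spans of 790 to 95780 bases, so its read number could not be settled, and the day 2 ratio of 0.740 has an exact interval of 0.652 to 0.841 for the most reads and 0.169 to 4.87 for the fewest.

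ASNS encodes asparagine synthetase, the classical target by which an amino acid response is read. ASNS (chr7:97851677-97872542, minus strand) was at 0.721 and 5.76 TPM with SNHG26 guides on day 2 and day 3, and at 3.14 and 1.38 TPM with control guides. Its guide change was -1.26 on day 2 and 1.51 on day 3, the widest swing of the set. By limma the difference between the days was 2.77 (SE 0.99, unadjusted p = 0.0468, adjusted p = 0.961). ASNS alone in the set had an unadjusted p below 0.05 in that contrast, as 3.52% of all 8274 genes did.

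The reads behind ASNS do not order as the TPM values do. The control library of day 2 had exactly 1 read, on a transcript that spans 2562 bases and so counts for much in TPM. The SNHG26 library of day 2 had 2 reads on transcripts of 20004 and 20425 bases, and the control library of day 3 had 4 reads on transcripts of 17683 to 20425 bases. The lower TPM of the SNHG26 arm on day 2 is therefore 2 reads against 1. The SNHG26 library of day 3 matched no combination searched, so its read number could not be settled. It would be 18.4 reads on the full span and 2.26 on the shortest transcript span. The day 3 ratio of the arms, 4.19, had an exact interval of 1.44 to 17.8 for the most reads. For the fewest, which set 2 reads against 1, the interval was 0.101 to 115.

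**Figure D2:**
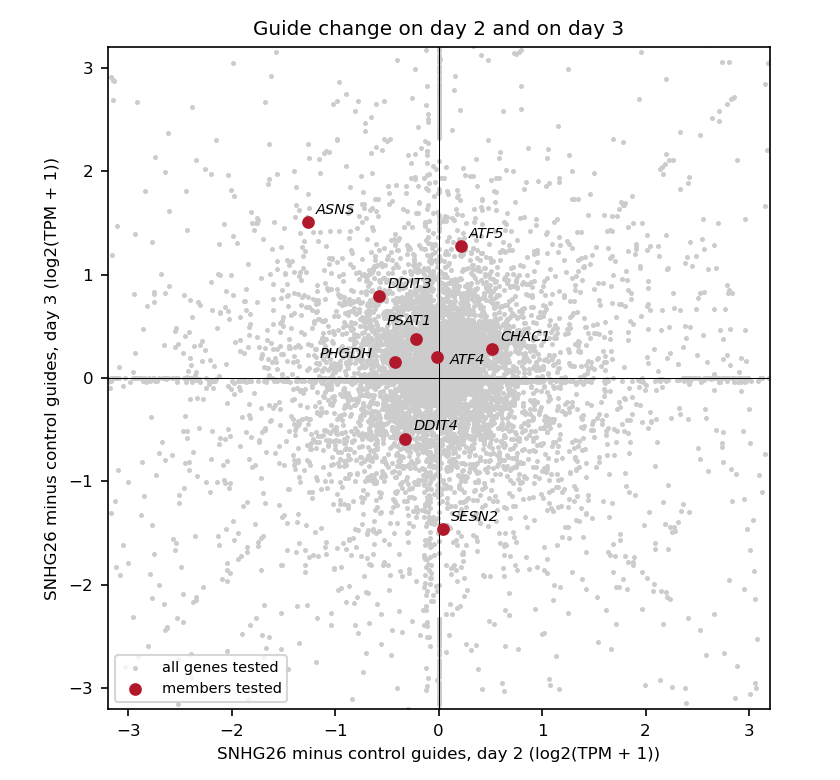
Guide change on day 2 (x axis) against day 3 (y axis), SNHG26 guides minus control guides on the log2(TPM + 1) scale, for the 8274 tested genes (grey) and the 9 tested genes of the set (labelled). Both axes end at 3.2, which leaves 696 grey genes outside, and 5 of the 9 lie at the upper left, below 0 on day 2 and above 0 on day 3.

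No gene of the set passed the adjusted test of any comparison. In limma's test of the guide change, 0 of 9 were called at an adjusted p of 0.05, where 0% of the 8274 genes were called and 4.07% had an unadjusted p below 0.05 (none of the 9). In the difference of the guide change between the days, 0 of 9 were called against 0.0967% of all genes. In the day change, 0 of 9 were called against 0.0363% of all genes, and DDIT4 alone had an unadjusted p below 0.05, as 6.61% of all genes did. Of the 20 exact intervals for the ratio of the arms, for 10 genes on 2 days, 5 lay wholly on 1 side of equality with the most reads the spans allow, and 2 (PSAT1 and SESN2 on day 3) with the fewest. An exact permutation test of a single gene over 2 against 2 libraries cannot give a two-sided p below 0.333.

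Across the set, the guide change tended to be negative on day 2 and positive on day 3. ATF4, DDIT3, ASNS, PSAT1 and PHGDH, or 5 of 9, were below 0 on day 2 and above 0 on day 3, as were 24.7% of all tested genes. Among genes averaging at least 20 TPM, 3 of 5 showed it (ATF4, PSAT1 and PHGDH), against 30.6% of all such genes. SESN2 alone had the opposite order, which 19.6% of all genes had. The median guide change over the 9 was -0.22 on day 2 and 0.28 on day 3, against 0 and 0.03 over all genes. The values of a day share both libraries, so the 9 genes are not independent. The negative day 2 values of ATF4 and ASNS are a difference of -0.01 and the 2 reads against 1 described above.

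The same values can also be read by arm. From day 2 to day 3, 7 of 9 genes were lower in the control arm (all but DDIT4 and SESN2), where 50.9% of all genes were lower, with a median of -0.46 against -0.02. In the SNHG26 arm, 5 of 9 were lower, where 45.4% of all genes were, with a median of -0.06 against 0. In the control arm the differences ran from -1.80 for DDIT3 and -1.75 for ATF5 through -0.65 for PSAT1 to -0.03 for CHAC1. In the SNHG26 arm PSAT1 was at -0.06, ATF4 at 0.02 and PHGDH at 0.12. All day 3 libraries were lower than all day 2 libraries for 3 genes (ATF5, DDIT3 and PSAT1; 18.4% of all genes), and all were higher for DDIT4 alone (17.1%).

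**Figure D3:**
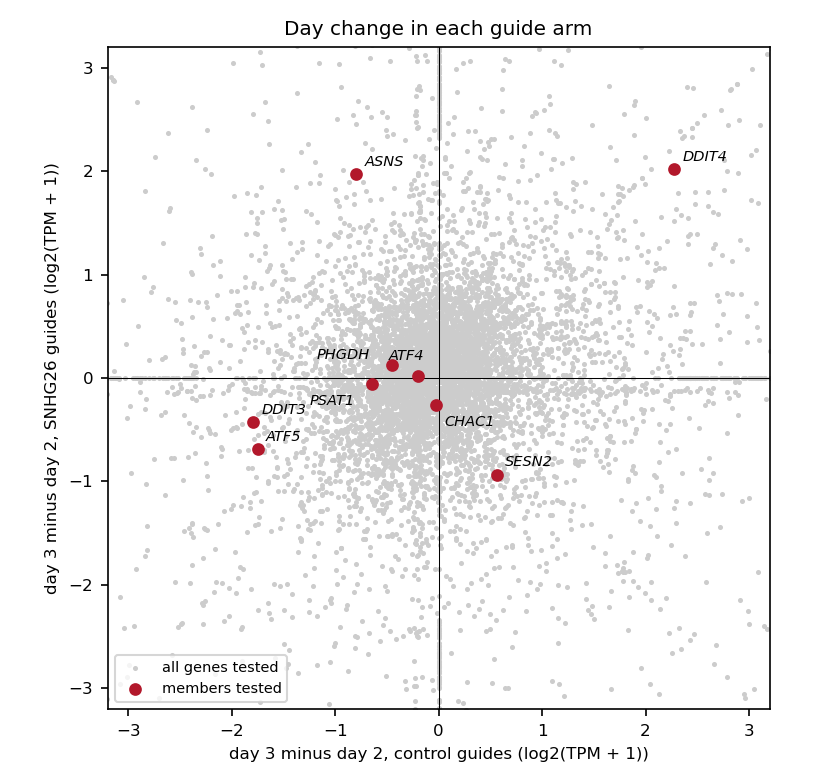
Day 3 minus day 2 on the log2(TPM + 1) scale in the control arm (x axis) and in the SNHG26 arm (y axis), for the 8274 tested genes (grey) and the 9 tested genes of the set (labelled). Both axes end at 3.2, which leaves 729 grey genes outside. DDIT4 is high in both arms (2.28 with control guides and 2.02 with SNHG26 guides), and 7 of the 9 lie below 0 in the control arm.

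Upstream of ATF4, the eIF2 kinases, eIF2 and eIF2B subunits and eIF2 phosphatase subunits gave 15 tested genes of 18. Of these, 0 were higher and 0 lower by limma's adjusted test. Their median guide change was 0.07 on day 2 and -0.14 on day 3. Below 0 on day 2 and above 0 on day 3 were 2 of the 15 (24.7% of all tested genes). The opposite order was held by 5 (19.6%). EIF2S3, the gamma subunit of eIF2 and the highest of the list, was at 62.6 to 76.2 TPM. EIF2S1, the alpha subunit that carries the regulatory phosphorylation, was at 8.28 and 10.3 TPM with SNHG26 guides on day 2 and day 3 and at 7.51 and 5.90 TPM with control guides. EIF2B4, a subunit of the eIF2 exchange factor, was at 23.5 and 45.5 TPM with SNHG26 guides and at 83.6 and 50.4 TPM with control guides. It was lower in the SNHG26 arm on both days, as were 21.8% of all tested genes. Its mean guide change of -0.97 (SE 0.46) did not pass limma's test (adjusted p = 0.935). It had at most 19.3 and 41.7 reads with SNHG26 guides and 62.3 and 44.9 with control guides. EIF2AK4 encodes GCN2, the kinase that senses uncharged tRNA. EIF2AK4 was at 0.353 TPM in the control library of day 2 and at 5.76 to 10.4 TPM in the other 3. These values are at most 4.46 reads and at most 80.2 to 158 reads, with the true numbers not settled. The difference of its guide change between the days, -2.34 (SE 2.28), did not pass limma's test (adjusted p = 0.966). EIF2AK3, which encodes the ER stress kinase PERK, was at 0 in all libraries.

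The partner transcription factors were mostly too low to test. CEBPG was at 1.62 and 2.18 TPM with SNHG26 guides on day 2 and day 3, which is about 2 and 3 reads, and at 0 in both control libraries. CEBPB was at 0 in all 4 libraries. XBP1, the transcription factor of the IRE1 branch of the unfolded protein response, was at 10.4 and 5.40 TPM with SNHG26 guides and at 21.1 and 11.8 TPM with control guides. Its guide change averaged -0.98, with nearly the same value on both days. XBP1 had at most 8.63 and 5.00 reads with SNHG26 guides on day 2 and day 3, and at most 15.9 and 10.6 with control guides. The other tested gene of the list had guide changes above 0 on both days, and 0 of the 2 were called in either direction.

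Of the other enzymes of serine, glycine and one-carbon metabolism, 2 of the 6 tested, PSPH and MTHFD2, had guide changes below 0 on day 2 and above 0 on day 3. This order was held by 24.7% of all tested genes. Another 2 of the 6 had the opposite order, as did 19.6% of all genes. PSPH, which completes serine synthesis after PSAT1, had guide changes of -0.10 and 0.17, and MTHFD2, a mitochondrial folate enzyme, of -0.06 and 0.20. SHMT2, the mitochondrial enzyme that makes glycine from serine, was at 123 and 102 TPM with SNHG26 guides on day 2 and day 3, and at 76.3 and 75.3 TPM with control guides. Both SNHG26 libraries lay above both control libraries, a pattern held by 16.1% of all 8274 genes. SHMT2 is named as the highest gene of its list and for the largest increase of 1 sign on both days. The mean guide change of SHMT2, 0.56 (SE 0.21), did not pass limma's test (adjusted p = 0.935). MTHFD1, the cytosolic folate enzyme, was at 16.3 TPM in the SNHG26 library of day 3 and at 27.5 to 31.4 TPM in the other 3. Of the 6 tested genes in this list, 0 were higher and 0 lower by limma's adjusted test, with medians of 0.16 on day 2 and 0.17 on day 3.

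Among other enzymes of amino acid metabolism, 8 were tested and none was called in either direction by limma. PYCR1, which makes proline, was at 59.3 and 97.0 TPM with SNHG26 guides on day 2 and day 3, and at 77.9 and 80.2 TPM with control guides. GLUL, glutamine synthetase, was at 8.68 and 9.58 TPM with SNHG26 guides and at 14.7 and 10.7 TPM with control guides. GOT1, the cytosolic aspartate aminotransferase, was at 6.00 to 9.42 TPM with no constant order of the arms.

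Of the amino acid transporters, 6 were tested and none was called in either direction by limma. Their median guide change was -0.26 on day 2 and -0.22 on day 3. Below 0 on day 2 and above 0 on day 3 were 2 of the 6 (24.7% of all tested genes). The opposite order was held by 1 (19.6%). SLC7A3, a carrier of arginine and lysine and the highest of the list, was at 76.9 TPM in the SNHG26 library of day 3 and at 94.5 to 103 TPM in the other 3. SLC3A2, the heavy chain shared by several transporters, was at 23.5 and 28.8 TPM with SNHG26 guides on day 2 and day 3 and at 33.8 and 22.5 TPM with control guides, so its guide change of -0.51 on day 2 and 0.34 on day 3 had the order of PSAT1. SLC1A5, a glutamine carrier, was lower on day 3 in both arms, from 13.1 to 5.47 TPM and from 17.2 to 7.32 TPM (limma day change -1.13, adjusted p = 0.595).

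The tRNA synthetases, whose promoters most often held the response element, gave 11 tested genes of 12 and 0 calls in either direction. Their median guide change was 0.02 on day 2 and 0.34 on day 3, and 5 of 11 were below 0 on day 2 and above 0 on day 3 (24.7% of all tested genes). In the control arm 9 of 11 were lower on day 3 than on day 2 (50.9% of all genes), and in the SNHG26 arm 5 of 11 (45.4%). TARS1, the highest, was at 106 to 116 TPM in all 4 libraries. YARS1, which charges tyrosine, was at 12.2 and 10.8 TPM with SNHG26 guides and at 22.4 and 6.57 TPM with control guides on day 2 and day 3. SARS1, which charges serine, was at 34.0 TPM in the SNHG26 library of day 3 and at 23.8 to 24.9 TPM in the other 3.

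The list of other targets and mTORC1 regulators gave 6 tested genes and 0 calls. STC2, a secreted glycoprotein induced by ATF4, was at 25.8 and 18.8 TPM with SNHG26 guides on day 2 and day 3 and at 42.0 and 14.7 TPM with control guides, the same order as DDIT3. EIF4EBP1, which encodes a translation repressor downstream of mTORC1, was at 24.5 TPM in the control library of day 3 and at 34.4 to 39.0 TPM in the other 3. CASTOR1, an arginine sensor that restrains mTORC1, was at 4.96 and 7.42 TPM with SNHG26 guides and at 10.9 and 12.1 TPM with control guides. CHAC2, the constitutive relative of CHAC1, was at 9.08 to 11.5 TPM, with guide changes of 0.14 and 0.31.

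**Figure D4:**
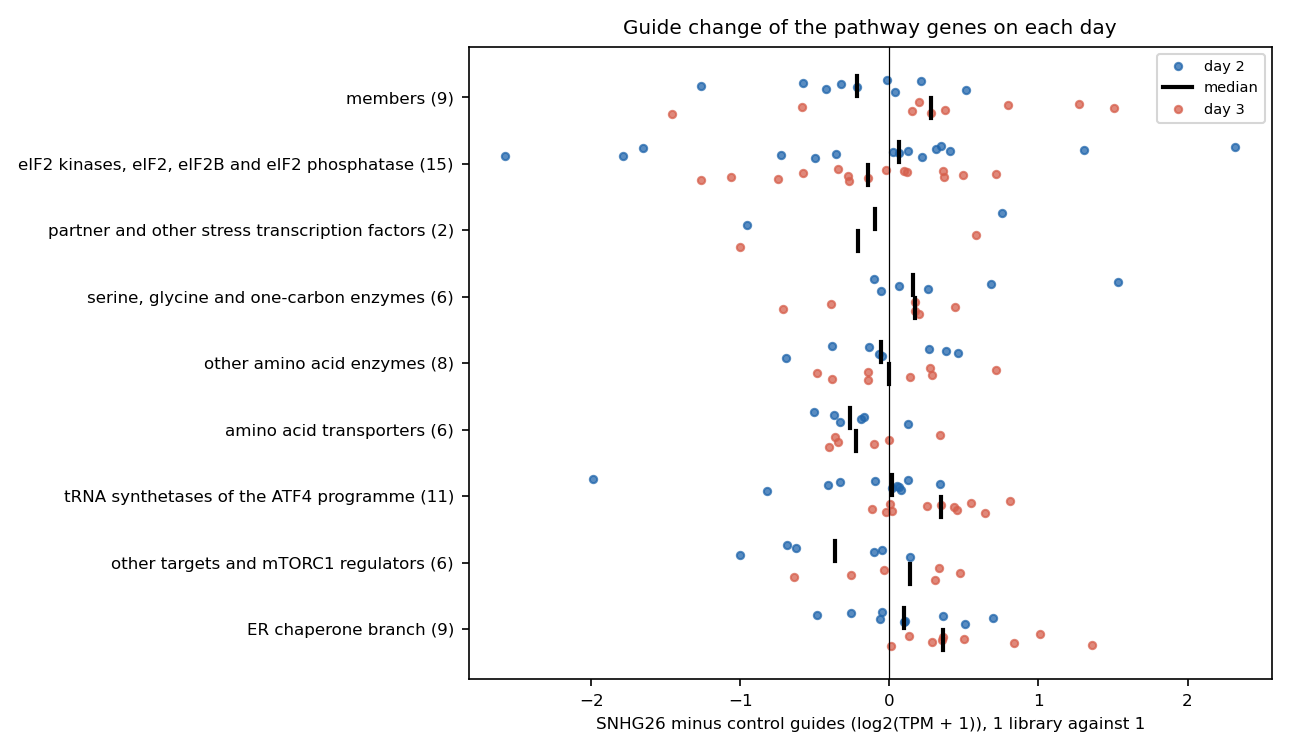
Guide change of each tested gene on day 2 and day 3 (log2(TPM + 1) scale), by list, with 1 point per gene and a bar at the median of the list. The bar of the 9 genes of the set moves from -0.22 to 0.28, and that of the 11 tRNA synthetases from 0.02 to 0.34. That of the 15 eIF2 pathway genes moves the other way, from 0.07 to -0.14. That of the 6 amino acid transporters lies at -0.26 and -0.22.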

How the data were processed

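The authors deposited gene-level TPM, 1 column per library. The submitters' processing notes name minimap2 2.24-r1122 and GRCh38; the counting tool, annotation and any filter are not given in the sources used here. The deposited TPM divides by genomic span with introns: 3087 of 13840 genes with a value gave whole reads within 0.001 read on the listed span, and 1 read on 10 kb was worth 0.653 to 0.803 TPM. Other read numbers are bounds from the listed and the shortest GENCODE release 29 spans, or rest on 1 fitted span. The fitted span is the shortest at which the most libraries, and at least 2, came to whole reads within 0.0001 read. Longer spans were not excluded. For ASNS, sums over GENCODE transcripts were used. Levels of different genes therefore depend on span.

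Libraries were grouped by the guides in the labels. Values were taken as log2(TPM + 1), which understates changes of low genes; genes averaging at least 1 TPM entered limma 3.58.1 (R 4.3.3, eBayes with trend, no day term, Benjamini-Hochberg over 8274 genes, threshold 0.05), checked on simulated data. The day and the day difference were tested in separate fits of the same kind, each setting 2 libraries against the other 2, so that the spread of each holds the remaining effects. Exact intervals are 95% binomial (Clopper-Pearson) on reads. The alternatives were other pseudocounts, filters and scalings, eBayes without trend, a replicate block and leaving out each library.

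The 10 genes and the lists were chosen with earlier results of these data known. Besides them, the text names in each list the highest gene and, above an average of 5 TPM, the genes with the largest guide change of 1 sign on both days and the largest day difference. CEBPG, CEBPB, EIF2AK3, PSPH and MTHFD2 were named after their values were seen. NUPR1, SLC1A4 and FGF21 are not analysed here.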

Additional observations from a re-analysis of the deposited data

How the results depend on the processing

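The count of genes called for the guides was 0 with limma under every alternative, with 337 at an unadjusted p under 0.05 and 359 with the replicate block. For the day change 3 genes were called, and 0 with the replicate block, quantile normalization, either other pseudocount (0.1 or 5), eBayes without trend, no filter or any library left out. For the day difference 8 were called, 14 with a pseudocount of 0.1, 13 for genes averaging at least 5 TPM, and 0 with the replicate block, eBayes without trend, a pseudocount of 5 or no filter. The cause was not tested. For the guide change the replicate block pairs libraries by day, which the labels do not call a batch. For the day change and the day difference the block is the guide arm. Same-day libraries deviated together with a correlation of 0.046 across 8274 genes. The block changed no call among the 9 tested genes; TRIB3 did not enter it. The day difference cannot be computed from 3 libraries, so no library was left out there.

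No alternative other than leaving out a library reversed a tested gene of the set. Leaving out each library (the lone library of an arm was assumed to vary like the others; leave-one-out for the day change was chosen after seeing the data) gave these ranges on the log2 scale. With 3 libraries the guide change takes in part of the day change, and the day change part of the guide change. The guide change ran from -0.86 to 1.11 for ASNS, -0.00618 to 0.19 for ATF4, -0.13 to 1.62 for ATF5, -0.79 to 1.01 for DDIT3, -1.595 to 0.68 for DDIT4, -0.36 to 0.0930 for PHGDH and -0.25 to 0.40 for PSAT1. The day change ran from -0.17 to 1.34 for ASNS, -0.19 to 0.00895 for ATF4, -0.40 to 0.11 for CHAC1, -0.38 to 0.05 for PHGDH, -0.91 to 0.54 for SESN2, -1.85 to -0.58 for ATF5, -1.51 to -0.71 for DDIT3, -0.54 to -0.16 for PSAT1 and 1.85 to 2.44 for DDIT4. Depth limits TRIB3, ASNS, SESN2, DDIT3 and ATF5, each at under 20 reads a library.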

Other observations

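The ER chaperone genes, targets of the ATF6 and IRE1 branches that run beside the ATF4 branch, gave 9 tested genes of 10, and none was called in either direction by limma. Their median guide change on the 2 days was 0.10 and 0.36, with 5 of 9 above 0 on both days (24.8% of all tested genes) and none below 0 on both (21.8%). From day 2 to day 3, all 9 were lower in the control arm (50.9% of all genes) and 5 of 9 in the SNHG26 arm (45.4%). HSPA5, which encodes the chaperone BiP, was at 19.1 and 30.2 TPM with SNHG26 guides on day 2 and day 3, and at 19.8 and 14.5 TPM with control guides. CALR, the calcium-binding chaperone calreticulin, was at 464 and 547 TPM with SNHG26 guides and at 431 and 306 TPM with control guides. SDF2L1, a cofactor of BiP, was at 124 and 81.7 TPM with SNHG26 guides and at 76.4 and 63.9 TPM with control guides.

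Other genes beside DDIT4 were higher in both day 3 libraries than in both day 2 libraries, a pattern held by 17.1% of all tested genes. The 3 named here were picked with their values in view, and none passed limma's adjusted test. They come from the 34 genes averaging at least 20 TPM that were more than 2-fold higher on day 3 in both arms. BNIP3, a mitophagy receptor, was at 10.9 and 8.81 TPM on day 2 (SNHG26 guides, then control guides). On day 3 it was at 50.2 and 65.4 TPM, a day change of 2.43 (SE 0.26, limma adjusted p = 0.148). MT1H, a metallothionein, was at 72.1 and 140 TPM on day 2 and at 343 and 444 TPM on day 3 (limma adjusted p = 0.409). MT1G, a second metallothionein, was at 682 and 884 TPM on day 2 and at 1399 and 1921 TPM on day 3 (limma adjusted p = 0.449). Metallothionein genes are near-identical copies, so how their reads were split is uncertain.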
